A study of Homo sapiens with 10 samples.

Results

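The genes examined here encode 9 components of corepressor complexes that lie outside the NuRD complex: *NCOR1*, *TBL1XR1*, *HDAC3*, *SIN3A*, *SIN3B*, *RCOR1*, *KDM1A*, *CTBP1* and *CTBP2*. They were taken by symbol from the count tables of T47D cells, an established human luminal breast cancer cell line, and all 9 were found among the 19695 genes listed. The study asked how the atypical GATA factor TRPS1 and the remodeler CHD4 act together on transcription. The 6 RNA-seq libraries came from T47D cells grown in RPMI-1640 with fetal bovine serum and transfected with Lipofectamine RNAiMAX for 72 h. A control siRNA, an siRNA to *TRPS1* and one to *CHD4* were used, with 2 libraries for each. By the labels, every group carried a transfected siRNA. Both knockdowns were compared with the same control libraries, so that those comparisons are not independent. The labels call the CHD4 reagent an siRNA where the RNA-seq methods of the study name an shRNA, so that its type is not settled. Positions of TRPS1 binding came from 1 list of 1844 ChIP-seq peaks of T47D cells. All values rest on a single cell line. Nothing states that the 2 libraries of a group came from separate cultures, so p-values measure only the spread between these libraries, which may be technical.

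Corepressors do not bind DNA themselves as a rule; sequence-specific factors bring them to genes. The NCoR complex joins the scaffold NCOR1 with the WD40 protein TBL1XR1 and the deacetylase HDAC3, and it is best known for repression by unliganded nuclear receptors. SIN3A and SIN3B are alternative scaffolds for class I deacetylases, RCOR1 links the histone H3 lysine demethylase KDM1A (LSD1) to deacetylases in the CoREST complex, and CTBP1 and CTBP2 are NAD(H)-binding corepressors recruited by zinc-finger repressors.

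Total counts ranged from 10333138 to 14668358 per library. One library stood apart: control replicate 1 correlated with the other 5 at r = 0.850 to 0.867 across genes, where the other pairs reached 0.938 to 0.974. Fold changes of the 9 genes against control, and of the partner genes with a value singled out, are therefore also given without it. That leaves 1 control library, so the spread of control is not measured and no p-value is given for those values. *TRPS1* was at 1418 and 2323 CPM (TMM-scaled counts per 1e6, over the 6 libraries together) in control cells and at 1149 and 727 CPM in *TRPS1* siRNA cells, a log2 fold change of -0.97 ± 0.39 (SE, unadjusted p = 0.0459, adjusted p = 0.659 in edgeR's quasi-likelihood test). *CHD4* was at 295 and 292 CPM in control cells and at 96.2 and 54.2 CPM in *CHD4* siRNA cells (log2 fold change -1.96 ± 0.42, unadjusted p = 0.00186, adjusted p = 0.784). The values were -1.26 for *TRPS1* and -1.91 for *CHD4* without control replicate 1. Both targeted genes were thus lower in both of their own knockdown libraries than in either control library. The 10 luminal markers checked (*ESR1*, *GATA3*, *KRT8* and others) were over 2 CPM in all 6 libraries. Of the 5 basal or myoepithelial markers, *KRT5*, *KRT14* and *KRT17* never exceeded 2 CPM. *ACTA2* (13.0 to 28.4 CPM) and *MYLK* (9.56 to 18.2 CPM) did in all 6 libraries. Of 8 stromal, endothelial and blood markers, 6 never exceeded 2 CPM. *COL1A1*, of the latter list, was at 59.0 to 153 CPM, and *CD14* exceeded 2 CPM in the *CHD4* siRNA libraries alone (2.34 and 2.40 CPM).

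The TRPS1 peaks gave the sequences of interest here. Of the 9 genes, *TBL1XR1* held 2 TRPS1 peaks and the other 8 held none, and no peak lay within 5 kb of a RefSeq start of any of the 9. Across the 18 promoter windows of the 9 genes (250 bases before to 50 after each start, RefSeq, GRCh38.p14), 0 overlapped a peak, against 1.05% of all 35116 windows. A group of 37 partner genes of the same complexes was examined alongside, and there TRPS1 peaks overlapped 3 promoters. They belong to *TBL1X*, the paralog of *TBL1XR1*, to *ING1*, which encodes a histone-mark reader found with SIN3, and to *GSE1*, a proline-rich CoREST subunit. These 3 windows are printed because ChIP signal was called on them, and the *TBL1XR1* window for contrast with that of its paralog. The *GSE1* and *TBL1XR1* windows belong to starts inside the gene span, not at its 5′ end. Capitals mark each GATA, read on either strand, so that TATC in capitals is GATA on the other strand:
TBL1X, chrX:9463045-9463344, + strand: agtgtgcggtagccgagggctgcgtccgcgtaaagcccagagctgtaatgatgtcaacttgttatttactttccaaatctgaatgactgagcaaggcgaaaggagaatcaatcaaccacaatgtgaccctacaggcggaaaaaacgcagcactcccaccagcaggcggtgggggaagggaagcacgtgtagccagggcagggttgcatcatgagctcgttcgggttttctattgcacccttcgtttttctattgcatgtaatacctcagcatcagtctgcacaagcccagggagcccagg
ING1, chr13:110715187-110715486, + strand: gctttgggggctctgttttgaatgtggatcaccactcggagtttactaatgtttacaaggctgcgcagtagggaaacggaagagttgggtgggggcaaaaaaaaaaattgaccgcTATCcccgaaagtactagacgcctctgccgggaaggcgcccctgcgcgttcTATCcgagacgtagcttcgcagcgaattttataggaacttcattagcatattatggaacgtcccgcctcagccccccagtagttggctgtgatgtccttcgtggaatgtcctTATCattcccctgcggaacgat
GSE1, chr16:85613072-85613371, + strand: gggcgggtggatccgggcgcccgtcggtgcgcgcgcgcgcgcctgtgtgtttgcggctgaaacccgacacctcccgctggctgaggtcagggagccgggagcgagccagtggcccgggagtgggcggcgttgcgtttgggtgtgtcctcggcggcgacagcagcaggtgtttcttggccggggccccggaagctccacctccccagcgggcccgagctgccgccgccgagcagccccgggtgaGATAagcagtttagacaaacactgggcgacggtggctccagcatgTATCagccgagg
TBL1XR1, chr3:177197433-177197732, - strand: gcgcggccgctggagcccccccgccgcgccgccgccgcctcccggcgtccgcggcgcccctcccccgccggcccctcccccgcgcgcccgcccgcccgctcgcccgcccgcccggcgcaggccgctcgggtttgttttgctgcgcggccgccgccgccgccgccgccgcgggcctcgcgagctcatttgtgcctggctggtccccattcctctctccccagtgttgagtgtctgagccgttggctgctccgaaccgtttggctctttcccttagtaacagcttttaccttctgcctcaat

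The *TBL1X* window shared its first 181 bases with the peak at chrX:9463006-9463225, which ended 70 bases before the start, and it held no GATA. The *ING1* window shared its last 143 bases with the peak at chr13:110715344-110715564, and 2 of its 3 GATA words lay in the shared part. The last of them reads TGATAA on the other strand. The *GSE1* window shared 174 bases with the peak at chr16:85613198-85613536, which held both of its GATA words, among them AGATAA around the first. The *TBL1XR1* window printed held no GATA and was rich in G and C (75.0%). Its second window, chr3:177196429-177196728, belongs to the start nearest the peaks, and it held no GATA either (65.3% G and C). The letters GATA were found in 5 of the 18 windows of the 9 genes (27.8%) and in 49.7% of all windows, both strands being searched. The same word with A or T before it and A or G after it was in 1 of the 18 (5.56%) and in 25% of all windows. The windows of the 9 genes also had a higher median content of G and C (66.0%) than all windows (58.7%), so that these shares are not matched for base composition.

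*TBL1XR1* lies at chr3:177019344-177201800 on the minus strand. Its 2 peaks were at chr3:177154857-177155068 and chr3:177050785-177051105, 41.4 and 145 kb from its nearest RefSeq start, inside the gene span. Exon and intron could not be assigned, since the annotation used here gives spans only. Of 15523 protein-coding genes listed in the count tables, 4.78% held a peak and 0.599% held 2 or more. Long genes hold more: among the 1421 with a span at least that of *TBL1XR1*, 13.7% held a peak and 3.94% held 2 or more. The next peaks lay beyond it at 65.2 kb on the 3′ side and 84.2 kb on the 5′ side. For the other 8 genes the nearest peak was 399 kb (*SIN3B*) to 4355 kb (*SIN3A*) from a start. The only *SIN3B* start used (window chr19:16863024-16863323, + strand) lies inside the gene span, which begins at 16829398. The 5′ end of that span was therefore not covered by the 18 windows, though no peak lay within 50 kb of the span. The 5′ ends of 2 other minus-strand spans were not covered either. The *TBL1XR1* starts used (177197482 and 177196478) lie inside a span ending at 177201800. The outermost *CTBP2* window ends at 125161280, inside a span ending at 125162463. The only *GSE1* start used (85613322) likewise lies inside its span, which begins at 85169512. Of the partners, *GSE1* held 12 peaks, the highest number of any of the 15523 genes, and *CORO2A*, *PHF21A* and *ING1* held 1 each. *GSE1* spans 507 kb, and its count was not set against genes of that length.

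**Figure D1:**
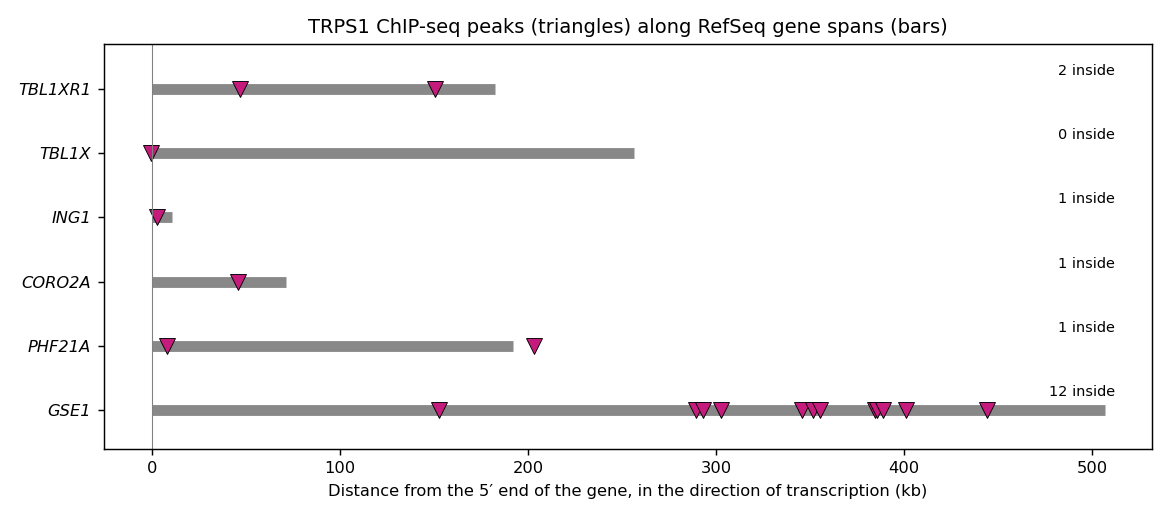
TRPS1 ChIP-seq peaks (triangles, at peak centres) along the spans of *TBL1XR1* and 5 partner genes (bars), with distance from the gene's 5′ end in kb and the number of peaks inside each span at the right. The 2 *TBL1XR1* peaks lie deep in the gene, the *TBL1X* peak just before its 5′ end, and 12 peaks are spread over *GSE1*.

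All 9 genes were over the filter of 2 CPM in every comparison. With *TRPS1* silenced, none of them passed the test, and the 3 that separated fully from control were all lower. *CTBP2* was 1.43-fold lower, *SIN3A* 1.52-fold lower and *KDM1A* 1.28-fold lower, each in both *TRPS1* siRNA libraries. At an adjusted p under 0.05 the count was 0 of 9, and 0 of all 12921 genes tested (0%) in edgeR, against 34 of all genes by edgeR's likelihood ratio test and 39 by DESeq2, 0 of the 9 by either. At an unadjusted p under 0.05 it was 0 of 9, against 6.98% of all genes. The median log2 fold change of the 9 was -0.24, beside -0.02 over all genes tested, and 6 of 9 were below 0. Groups did not overlap for 3 of 9, against 44.1% of all genes (22.8% higher, 21.3% lower). That share is no larger than that of all genes. Past the study's threshold of 2-fold with an unadjusted p under 0.05 were 0 of 9, against 5.87% of all genes.

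With *CHD4* silenced, the 4 genes that separated fully from control were again all lower. At an adjusted p under 0.05, 0 of 9 passed and 0 of 12918 genes did (0%), with 58 called by the likelihood ratio test and 50 by DESeq2, 0 of the 9 by either. At an unadjusted p under 0.05 it was 0 of 9, against 5.95% of all genes. *CTBP2*, *SIN3A*, *KDM1A* and *NCOR1* were lower in both *CHD4* siRNA libraries than in either control library, 4 of 9 against 39.8% of all genes (20.1% higher, 19.7% lower). Past 2-fold with an unadjusted p under 0.05 were 0 of 9, against 5.45% of all genes. The median of the 9 was -0.28, beside -0.02 over all genes tested.

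Set directly against each other, the knockdowns differed most at *TBL1XR1*, which was 1.59-fold higher with *CHD4* siRNA than with *TRPS1* siRNA. It was the 1 of 9 genes with an unadjusted p under 0.05, against 15.4% of all 13143 genes tested, and 0 of 9 reached an adjusted p under 0.05 (0% of all genes). By edgeR's likelihood ratio test 570 genes were called and by DESeq2 456, with 0 and 1 of the 9. Groups did not overlap for 5 of 9 (*TBL1XR1*, *RCOR1* and *SIN3A* higher, *NCOR1* and *SIN3B* lower), against 47% of all genes (23.3% higher, 23.8% lower). Past the study's threshold of 2-fold with an unadjusted p under 0.05 were 0 of 9, against 3.67% of all genes.

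**Figure D2:**
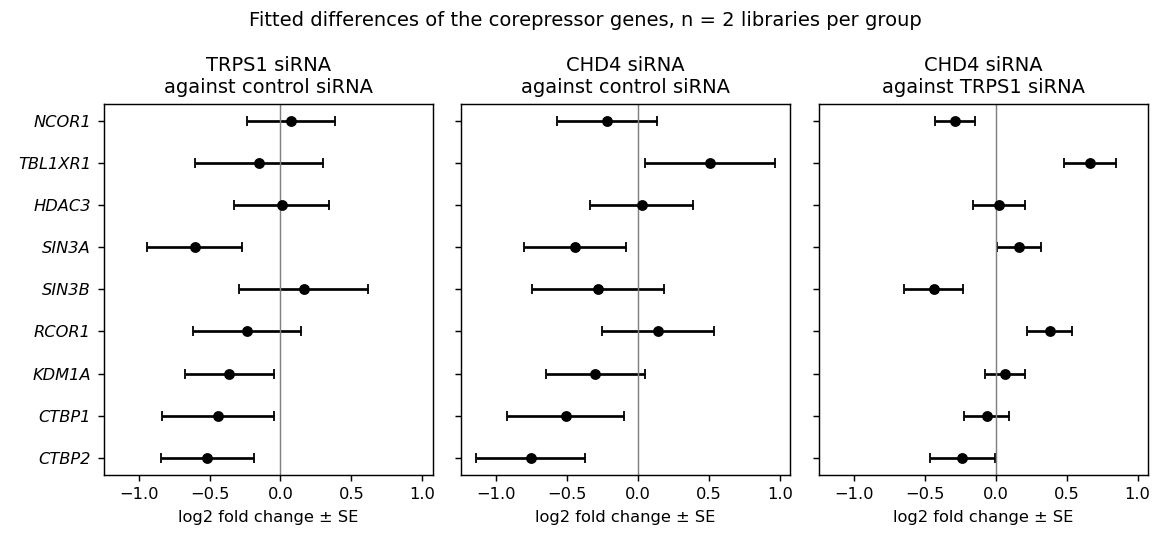
Log2 fold change of each of the 9 genes with its standard error in the 3 comparisons (edgeR, 2 libraries per group; left of 0, lower in the group named first). *SIN3A*, *KDM1A*, *CTBP1* and *CTBP2* lie left of 0 against control in both knockdowns, and the errors are narrower between the knockdowns than against control.

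Of the NCoR complex, *NCOR1*, the scaffold, ranged 1.33-fold over the 6 libraries. It was at 142 and 138 CPM in control, 142 and 151 CPM in *TRPS1* siRNA and 113 and 127 CPM in *CHD4* siRNA cells. The order of the group means was *TRPS1* siRNA (147 ± 6.16, SD, n = 2), control (140.3 ± 3.06) and *CHD4* siRNA (120.0 ± 9.25), with control and *TRPS1* siRNA overlapping and *CHD4* siRNA below both. The log2 fold change was 0.08 ± 0.31 (SE) for *TRPS1* siRNA, -0.22 ± 0.35 for *CHD4* siRNA (unadjusted p = 0.557) and -0.29 ± 0.14 between the knockdowns (unadjusted p = 0.0867, adjusted p = 0.399 in edgeR). The values against control were 0.13 and -0.15 without control replicate 1. RefSeq lists 4 copies named as *NCOR1* pseudogenes, and reads shared with them could have been split or lost.

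*TBL1XR1*, which exchanges corepressors for coactivators at nuclear receptors, varied most across the 6 libraries, by 2.57-fold from lowest to highest. It was at 341 and 826 CPM in control cells. In *TRPS1* siRNA cells it was at 557 and 476 CPM and in *CHD4* siRNA cells at 877 and 760.1 CPM. The control pair thus spanned almost the whole range, by 2.42-fold, where the *TRPS1* siRNA pair spanned 1.17-fold and the *CHD4* siRNA pair 1.15-fold, and both knockdown groups overlapped control. Between the knockdowns the log2 fold change was 0.67 ± 0.18 (SE, unadjusted p = 0.0110, adjusted p = 0.190 in edgeR, 0.0464 in DESeq2), higher in both *CHD4* siRNA libraries than in either *TRPS1* siRNA library. Against control it was -0.15 ± 0.45 for *TRPS1* siRNA and 0.51 ± 0.46 for *CHD4* siRNA.

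Those 2 values turned on the control library used. Without control replicate 1 the *TBL1XR1* log2 fold change was -0.63 for *TRPS1* siRNA and 0.04 for *CHD4* siRNA. Without control replicate 2, which leaves the library that stood apart as the only control, it was 0.58 and 1.24. The direct comparison of the knockdowns uses no control library.

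*HDAC3*, the deacetylase of the complex, was at 69.6 and 76.8 CPM in control, 63.1 and 82.8 CPM in *TRPS1* siRNA and 70.4 and 77.7 CPM in *CHD4* siRNA cells. All 3 groups overlapped, with means of 73.2, 73.0 and 74.1 CPM. The range over the 6 libraries was the smallest of the 9 genes, at 1.31-fold. The log2 fold changes were 0.01 ± 0.34, 0.03 ± 0.36 and, between the knockdowns, 0.02 ± 0.18. Those against control were -0.03 and -0.0025 without control replicate 1.

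**Figure D3:**
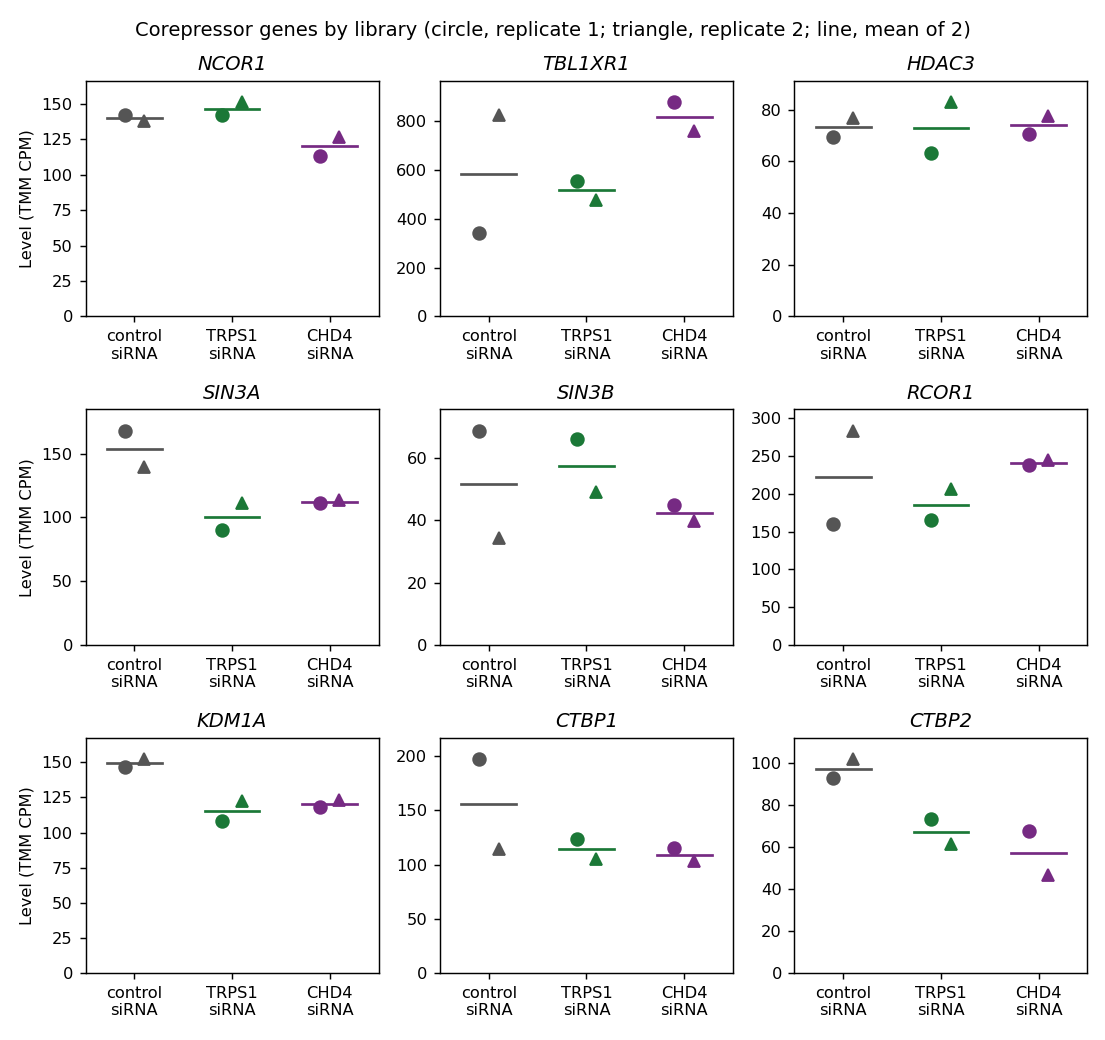
TMM-scaled CPM of each of the 9 genes in the 6 libraries, by group (circle, replicate 1; triangle, replicate 2; line, mean of 2). *CTBP2*, *SIN3A* and *KDM1A* are lower in all 4 knockdown libraries than in both control libraries, and the control pair of *TBL1XR1*, *SIN3B*, *RCOR1* and *CTBP1* is spread widely.

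Of the SIN3 scaffolds, *SIN3A* was at 168 and 139.5 CPM in control, 90.2 and 111 CPM in *TRPS1* siRNA and 111 and 114 CPM in *CHD4* siRNA cells. All 4 knockdown libraries were below both control libraries. The log2 fold change was -0.60 ± 0.34 (SE, unadjusted p = 0.119, adjusted p = 0.664 in edgeR) for *TRPS1* siRNA and -0.44 ± 0.36 (unadjusted p = 0.253) for *CHD4* siRNA. Without control replicate 1 the values were -0.43 and -0.26. Without control replicate 2, which leaves the library that stood apart as the only control, the first was -0.76.

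*SIN3B* was at 68.7 and 34.3 CPM in control, 66.0 and 49.0 CPM in *TRPS1* siRNA and 45.0 and 39.8 CPM in *CHD4* siRNA cells. The control libraries held both its highest and its lowest value. Against control the log2 fold changes were 0.16 ± 0.46 and -0.28 ± 0.46. Without control replicate 1 they were 0.79 and 0.36. Between the knockdowns *SIN3B* was at -0.44 ± 0.21 (unadjusted p = 0.0781, adjusted p = 0.382), lower in both *CHD4* siRNA libraries.

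Of the CoREST core, *KDM1A* (LSD1) was at 146 and 152 CPM in control, 108 and 123 CPM in *TRPS1* siRNA and 118 and 123 CPM in *CHD4* siRNA cells. Its control libraries differed by 1.04-fold, and all 4 knockdown libraries were below them. The log2 fold changes were -0.36 ± 0.32 (unadjusted p = 0.294) and -0.30 ± 0.35 (unadjusted p = 0.416). Without control replicate 1 they were -0.35 and -0.29.

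*RCOR1*, the scaffold that holds KDM1A, was at 160.0 and 283 CPM in control, 166 and 206 CPM in *TRPS1* siRNA and 238 and 245 CPM in *CHD4* siRNA cells. Both knockdown groups lay within the range of the control pair, and *CHD4* siRNA above *TRPS1* siRNA. The log2 fold change between the knockdowns was 0.38 ± 0.16 (unadjusted p = 0.0562, adjusted p = 0.337). Against control it was -0.24 ± 0.38 and 0.14 ± 0.39, and -0.57 and -0.18 without control replicate 1.

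*CTBP2* was at 92.9 and 102 CPM in control, 73.4 and 61.3 CPM in *TRPS1* siRNA and 67.6 and 46.9 CPM in *CHD4* siRNA cells. No knockdown library reached a control library. The log2 fold change was -0.52 ± 0.33 (unadjusted p = 0.164, adjusted p = 0.675) for *TRPS1* siRNA and -0.76 ± 0.38 (unadjusted p = 0.0874, adjusted p = 0.792) for *CHD4* siRNA. Without control replicate 1 they were -0.55 and -0.78. RefSeq lists 11 copies named as *CTBP2* pseudogenes, so that part of its reads may be miscounted.

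*CTBP1* was at 197 and 114 CPM in control, 123 and 105 CPM in *TRPS1* siRNA and 115 and 103 CPM in *CHD4* siRNA cells. Only control replicate 1 stood clear of the rest. The log2 fold changes of -0.44 ± 0.40 and -0.51 ± 0.41 became 0.04 and -0.02 without that library. They were -0.80 and -0.87 without control replicate 2, with control replicate 1 as the only control.

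*CTBP2*, *SIN3A* and *KDM1A* were lower in all 4 knockdown libraries, as were 5 of the 10 luminal markers (*ESR1*, *KRT8*, *KRT18*, *KRT19* and *XBP1*). Of all genes, 21.3% lay below both controls with *TRPS1* siRNA and 19.7% with *CHD4* siRNA. The share below in both knockdowns was not computed, and both used the same control libraries. *GATA3* was below both controls with *CHD4* siRNA alone, *PGR*, *FOXA1*, *EPCAM* and *CDH1* overlapped control in both knockdowns, and the fitted values of *EPCAM* were above 0 (0.37 and 0.28), as was that of *FOXA1* with *CHD4* siRNA (0.21). The summed level of the 10 markers, led by the 3 keratins, was 13118 to 15794 CPM in control, 6885 to 6886 CPM in *TRPS1* siRNA and 5764 to 7988 CPM in *CHD4* siRNA cells. The summed level of the 5 basal or myoepithelial markers was 23.9 to 24.7, 37.2 to 44.9 and 42.8 to 44.2 CPM, all but a little of it from *ACTA2* and *MYLK*. The part of these shifts in the corepressor results was not tested. In bulk RNA, fewer cells of a kind and less RNA per cell cannot be told apart.

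Ratios of paralogs within a library do not depend on library scaling. Raw counts were used without gene length, so that a ratio compares libraries and not the 2 genes. The log2 ratio of *SIN3A* to *SIN3B* was 1.29 and 2.02 in control, 0.45 and 1.18 in *TRPS1* siRNA and 1.31 and 1.51 in *CHD4* siRNA libraries. It was lower in both *TRPS1* siRNA libraries than in any other library.

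The log2 ratio of *KDM1A* to *RCOR1* was -0.13 and -0.90 in control, -0.62 and -0.75 in *TRPS1* siRNA and -1.02 and -0.99 in *CHD4* siRNA libraries, lowest in the 2 *CHD4* siRNA libraries. That of *CTBP1* to *CTBP2* was 1.08 and 0.17 in control, 0.75 and 0.77 in *TRPS1* siRNA and 0.77 and 1.14 in *CHD4* siRNA libraries, with all groups overlapping control. That of *TBL1XR1* to *TBL1X* was 2.63 and 4.21 in control, 3.11 and 3.07 in *TRPS1* siRNA and 3.31 and 3.60 in *CHD4* siRNA libraries. The control pair was the widest in every one of the ratios but that of *SIN3A* to *SIN3B*, where the SD was 0.52 in both the control and the *TRPS1* siRNA pair.

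**Figure D4:**
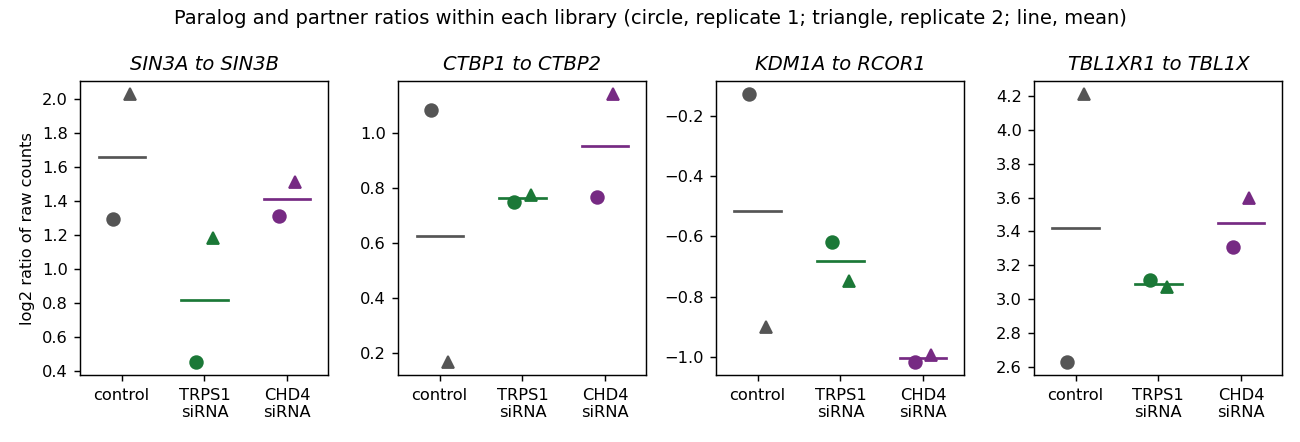
Log2 ratio of raw counts between paralogs or partners within each library, by group (circle, replicate 1; triangle, replicate 2; line, mean of 2; each panel has its own axis, which does not start at 0). The *KDM1A* to *RCOR1* ratio is lowest in both *CHD4* siRNA libraries and the *SIN3A* to *SIN3B* ratio in both *TRPS1* siRNA libraries.

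Across libraries, the replicates of the 9 genes differed by a median of 1.20-fold in control, 1.20-fold in *TRPS1* siRNA and 1.12-fold in *CHD4* siRNA cells, beside 1.61-, 1.15- and 1.19-fold over 11441 genes over 2 CPM in all 6 libraries. The range from lowest to highest library had a median of 1.86-fold over the 9 genes and 2.16-fold over the 11441. *HDAC3* (percentile 3.41 of the 11441 ranges), *NCOR1* (3.94) and *KDM1A* (7.19) were among the steadiest, and of the 9 only *CTBP2* (50.6) and *TBL1XR1* (66.4) were past the middle.

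The gene nearest to each in pattern was found by the root mean square (RMS) difference of gene-centred log2 CPM over the 6 libraries. *CTBP1* was nearest to *ERCC2* (RMS 0.037), *HDAC3* to *KIAA1586* (0.039), *KDM1A* to *MRPS35* (0.041), *SIN3A* to *MAN1B1* (0.042) and *NCOR1* to *CHMP1B* (0.046). *SIN3B* was nearest to *LINC00963* (0.051), *RCOR1* to *ATP2C1* (0.056), *TBL1XR1* to *HACD1* (0.070) and *CTBP2* to *C4orf19* (0.096). None of the 9 had another of the 9 as its nearest gene. The closest pair among them was *SIN3A* with *KDM1A* (RMS 0.14), and *KDM1A* ranked only 184 by nearness to *SIN3A*.

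Partner genes of the complexes were followed in 4 lists. None of the genes tested in these lists reached an adjusted p under 0.05 in any of the 3 comparisons in edgeR. Of the NCoR and SMRT partners, 1 of 5 had an unadjusted p under 0.05 with *TRPS1* siRNA (6.98% of all genes), and 0 of 5 in the other comparisons. That gene was *CORO2A*, a coronin found with NCoR, which was at 35.1 and 24.8 CPM in control, 16.2 and 11.5 CPM in *TRPS1* siRNA and 23.2 and 16.3 CPM in *CHD4* siRNA cells. It was below both controls in all 4 knockdown libraries, with log2 fold changes of -1.11 ± 0.42 (unadjusted p = 0.0362, adjusted p = 0.659) and -0.60 ± 0.43, and it held 1 of the TRPS1 peaks above. With control replicate 1 left out the values were -0.80 and -0.28.

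The highest value in this list was 0.48 for *ZBTB33* with *TRPS1* siRNA and 0.61 for *TBL1X* with *CHD4* siRNA, and the lowest with *CHD4* siRNA was -1.09 for *GPS2*. *GPS2*, which restrains JNK signalling within the complex, was at 37.9 CPM in control replicate 1 and 6.41 to 12.2 CPM in the other 5 libraries. Its log2 fold changes of -0.95 and -1.09 turned to 0.89 and 0.76 without that library, and that of *ZBTB33* with *TRPS1* siRNA was -0.05. *TBL1X*, whose promoter window overlapped a TRPS1 peak, was at 55.2 and 44.6 CPM in control, 64.4 and 56.7 CPM in *TRPS1* siRNA and 88.7 and 62.9 CPM in *CHD4* siRNA cells. It was higher than both controls in all 4 knockdown libraries. Its log2 fold changes were 0.29 ± 0.35 (unadjusted p = 0.439) and 0.61 ± 0.40 (unadjusted p = 0.169), or 0.48 and 0.81 without control replicate 1. Between the knockdowns the list ran from -0.14 (*GPS2*) to 0.52 (*CORO2A*).

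Of 14 SIN3 partners 13 were in the tables, and of these 0 had an unadjusted p under 0.05 with *TRPS1* siRNA, 1 (lower) with *CHD4* siRNA (5.95% of all genes) and 0 between the knockdowns. *MORF4L1*, a chromodomain protein that reads methylated histone H3, was at 293 and 221 CPM in control, 137 and 168 CPM in *TRPS1* siRNA and 119 and 138 CPM in *CHD4* siRNA cells. Its log2 fold changes were -0.75 ± 0.34 (unadjusted p = 0.0682) and -0.997 ± 0.37 (unadjusted p = 0.0292, adjusted p = 0.792), and no knockdown library overlapped control. They were -0.50 and -0.74 without control replicate 1. RefSeq lists 7 copies named as *MORF4L1* pseudogenes. The highest value in both was that of *SAP30L*, at 0.68 and 0.50 (0.55 and 0.38 without control replicate 1), and between the knockdowns the list ran from -0.49 (*ING2*) to 0.27 (*SAP30*). *ING1*, with a peak on its promoter window, stayed between 5.06 and 6.10 CPM in all 6 libraries.

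Of 9 CoREST partners, 0 had an unadjusted p under 0.05 against control in either knockdown and 1 (higher) between the knockdowns (15.4% of all genes). That was *RCOR2*, a paralog of *RCOR1*, at 31.6 and 9.42 CPM in control, 13.9 and 10.5 CPM in *TRPS1* siRNA and 45.6 and 25.3 CPM in *CHD4* siRNA cells (1.54 ± 0.34, unadjusted p = 0.00380, adjusted p = 0.136). Both *CHD4* siRNA libraries lay above both *TRPS1* siRNA libraries, while the control pair overlapped each group. Against control the lowest value with *TRPS1* siRNA was -0.76 (*RCOR2*), and with *CHD4* siRNA the list ran from -0.58 (*HMG20B*) to 0.78 (*RCOR3*). These values were 0.41, 0.29 and 0.31 without control replicate 1, and *RCOR2* with *CHD4* siRNA was at 1.96. *GSE1*, with 12 TRPS1 peaks, was at 1288 and 974 CPM in control, 1118 and 835 CPM in *TRPS1* siRNA and 1252 and 865 CPM in *CHD4* siRNA cells. Its groups overlapped in every comparison (log2 fold changes -0.20, -0.09 and 0.12; 0.05 and 0.17 against control without control replicate 1).

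Of 9 CtBP partners 6 were tested, and *ZEB1*, *ZEB2* and *EHMT2* had at most 9 counts in any library. With *TRPS1* siRNA 0 of 6 had an unadjusted p under 0.05, and with *CHD4* siRNA 1 of 6 did (5.95% of all genes). That was *ZNF516*, a zinc-finger protein that recruits CtBP, at 46.1 and 47.5 CPM in control, 74.2 and 61.0 CPM in *TRPS1* siRNA and 112 and 70.7 CPM in *CHD4* siRNA cells (0.54 ± 0.34, and 0.97 ± 0.40 with unadjusted p = 0.0440 and adjusted p = 0.792). All 4 knockdown libraries lay above both controls, and without control replicate 1 the values were 0.55 and 0.99. Between the knockdowns 1 of 6 had an unadjusted p under 0.05 (15.4% of all genes), *CDYL*, a chromodomain corepressor, at 0.60 ± 0.18 (unadjusted p = 0.0142, adjusted p = 0.206). The lowest value against control was that of *WIZ*, at -0.73 and -0.91, which was at 105 CPM in control replicate 1 and 37.4 to 46.0 CPM elsewhere (0.17 and 0.0008 without that library), and the lowest value between the knockdowns was -0.30 (*EHMT1*).

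**Figure D5:**
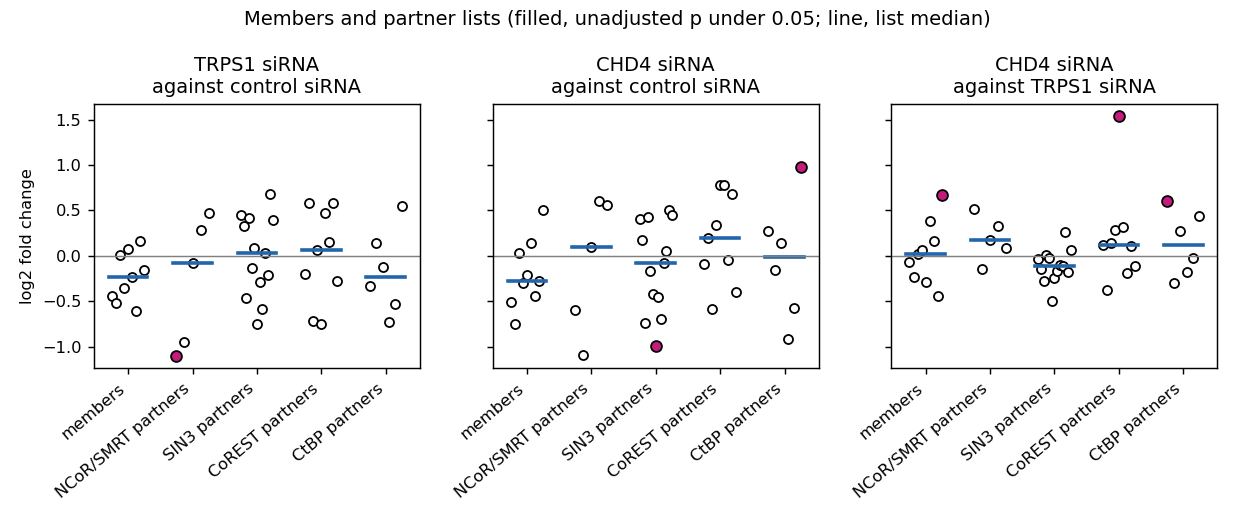
Log2 fold changes of the 9 genes and of the tested partner genes in the 3 comparisons (filled points, unadjusted p under 0.05; line, median of the list). One partner (*CORO2A*) is filled with *TRPS1* siRNA, 2 (*MORF4L1* and *ZNF516*) with *CHD4* siRNA and 2 (*RCOR2* and *CDYL*) between the knockdowns, where *RCOR2* is highest at 1.54.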

How the data were processed

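Gene counts of 6 T47D RNA-seq libraries were analysed. The authors aligned trimmed reads to hg38 with STAR and used HTSeq 0.9.0 to count reads by gene symbol; the deposited values are raw counts, in 2 tables that share the control libraries. The strand setting is not given in the sources used here, so overlapping antisense genes cannot be told apart. TRPS1 peaks were called by the authors with MACS2 2.1.1 and deposited as positions alone (no score). Genes that passed 2 CPM in 2 or more of the 4 compared libraries were tested with edgeR 4.0.16 (quasi-likelihood F-test, TMM factors, Benjamini-Hochberg adjustment), and the procedure was tested on simulated data. SE is the absolute log2 fold change over the root of F. Levels are CPM over the 6 libraries scaled together. DESeq2 1.42.0, other scalings and filters, and each library left out were tried. Named genes are the 9 members, the targeted genes, the highest and lowest change of each partner list, and each member's nearest gene in pattern; partners with peaks were added after values were seen. The members and lists were chosen with earlier results of these data known. No exon lengths or genome sequence were used here, so levels per kb and a motif search in peaks were not run. *FAM60A* was not analysed here, and some partner genes' values are not reported here.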

Additional observations from a re-analysis of the deposited data

Results flagged for a closer look

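In 3 of the 9 genes both libraries of one knockdown lay above the control mean and both of the other below it, a pattern of 8.54% of the 11441 genes over 2 CPM in every library (977). *TBL1XR1* and *RCOR1* were above with *CHD4* siRNA and below with *TRPS1* siRNA, and *NCOR1* the reverse. The direct comparison of the knockdowns gave log2 fold changes of 0.67 for *TBL1XR1*, 0.38 for *RCOR1* and -0.29 for *NCOR1*, with adjusted p = 0.190, 0.337 and 0.399 in edgeR, none of which passed. The control mean includes the library that stood apart. Against control replicate 2 alone the pattern was kept by *NCOR1* only. For *RCOR1* that library, at 283 CPM, was above every knockdown library (166 to 245 CPM). For *TBL1XR1* it was at 826 CPM, between the *CHD4* siRNA libraries (877 and 760 CPM). For *NCOR1* it was at 138 CPM, below both *TRPS1* siRNA libraries (142 and 151 CPM) and above both *CHD4* siRNA libraries (113 and 127 CPM).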

How the results depend on the processing

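With 2 libraries per group, 1 of them apart, the counts of calls are unstable, and the control library used set several directions. Over all genes the count at an adjusted p under 0.05, 0 in each comparison, became 34, 58 and 570 (likelihood ratio test), 39, 50 and 456 (DESeq2), and 111 and 424 without a filter for *CHD4* siRNA against control and between the knockdowns. With one library left out it ran from 0 to 6070, 0 to 3874 and 0 to 103, the highest against control without control replicate 2. Genes over 2-fold with unadjusted p under 0.05 (759, 704 and 483) were 1359, 1403 and 751 without a filter, 313 between the knockdowns with over 2 CPM in every library, and 74 to 4304, 91 to 3969 and 482 to 724 with one library left out. Library sizes alone, without TMM, moved the median log2 fold change of all genes from -0.02 to 0.10 with *TRPS1* siRNA and to 0.11 with *CHD4* siRNA, and the split of those 759 genes from 349 higher and 410 lower to 490 and 253, and of the 704 from 336 and 368 to 458 and 222.

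Of the 9 genes, 0 passed an adjusted p under 0.05 in each comparison. DESeq2 passed 1 (*TBL1XR1*) between the knockdowns, beside 456 of all 13143 genes. At an unadjusted p under 0.05 the counts of 0, 0 and 1 became 0 to 4, 0 to 5 and 1 to 2 with one library left out. With all 6 libraries in one fit they were 1 for *CHD4* siRNA and 0 between the knockdowns. Over 2-fold, 0 became 0 to 1 with *CHD4* siRNA. Directions turned with one library left out for *TBL1XR1* (-0.63 to 0.58), *HDAC3* (-0.17 to 0.19), *SIN3B* (-0.27 to 0.79), *RCOR1* (-0.57 to 0.19) and *CTBP1* (-0.80 to 0.0433) with *TRPS1* siRNA. With *CHD4* siRNA they did for *HDAC3* (-0.0247 to 0.12), *SIN3B* (-0.71 to 0.36) and *RCOR1* (-0.18 to 0.58), and between the knockdowns for *HDAC3* (-0.15 to 0.24), *KDM1A* (-0.0189 to 0.16), *CTBP1* (-0.17 to 0.0656) and *CTBP2* (-0.52 to 0.0153). *HDAC3* with *TRPS1* siRNA was also at -0.0185 without a filter. Between the knockdowns *TBL1XR1* stayed between 0.56 and 0.79. The cause of these shifts was not tested.

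No source says that replicate numbers stand for shared batches, and their deviations correlated at 0.14, 0.03 and 0.68, so blocked values are given only here. With the replicate block, all genes called were 32, 44 and 3372, and genes over 2-fold with *TRPS1* siRNA 1221. Between the knockdowns 3 of the 9 genes passed (*TBL1XR1*, *SIN3B* and *RCOR1*), beside the 3372 of all 13143 genes. At an unadjusted p under 0.05 it was 5 of 9, beside 4613 of all genes. In the blocked fit *HDAC3* with *TRPS1* siRNA was at -0.0036. Taking 50 kb around the gene spans, in place of 5 kb around starts, gave the same 2 peaks inside *TBL1XR1* and no others. They lay 41.4 and 145 kb from its nearest start. Ratios per kb could not be fitted, as no exon lengths were used.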
